A study of Canis lupus familiaris with 18 samples.

Results

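Expression of 6 DNA repair genes was described in canine high grade oligodendroglioma (HGO), a malignant glial tumor of the forebrain of dogs. The genes were MGMT, MSH3, MSH6, PMS1, PMS2 and MPG, taken by their symbols from the 29993 genes of the count table. RNA sequencing (RNASeq) had been performed on surgically resected, formalin-fixed and paraffin-embedded tumor tissue in 18 libraries. The French bulldog group had 11 libraries, and the group they were compared with had 4 libraries of boxers and 3 of Boston terriers. The dogs were clinical patients with spontaneous tumors, and the labels set the groups apart by breed. The library numbers in the labels were also read as series, as given below. The tissue was removed at surgery on enrollment in clinical trials, before trial treatment by the study's account. The labels give no age, sex, tumor location, alkylating treatment or outcome for any library, so these were not used here. The study does list age, sex and tumor location by dog, and reports that the groups differed in all of them. No normal brain library was included, so every level below is a level within tumor tissue.

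MGMT encodes O6-methylguanine-DNA methyltransferase, which removes the methyl group that temozolomide and related alkylating drugs leave on the O6 position of guanine and is used up in the reaction. When the lesion is not removed, it pairs with thymine, and the mismatch repair proteins recognize the mispair. MSH6 and MSH3 are the exchangeable subunits of the MutS complexes, which find single-base mismatches and insertion or deletion loops, respectively. PMS2 is the endonuclease subunit of the main MutL complex, which acts after MutS, and PMS1 is the subunit of a second MutL complex with a less defined role. MPG is the glycosylase that removes other methylated bases, such as 3-methyladenine, and starts base excision repair. In human glioma, MGMT silencing is known as a predictor of response to temozolomide, and loss of mismatch repair as a route to tolerance of that drug.

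The library totals ranged from 8212452 to 13169880 counts on genes. French bulldogs 2 and 8 share a case number in their labels. The study counts them as separate dogs but lists the same age, sex and tumor location for both. It also lists the same age, sex and tumor location for French bulldogs 1 and 7. Whether French bulldogs 2 and 8 come from 1 dog is not settled here. Across genes, the Spearman correlation of French bulldogs 2 and 8 was 0.989. The other 54 pairs of French bulldogs reached at most 0.955, with a median of 0.877. The library labelled French bulldog 6 went against its tissue label. It had 4 counts of OLIG1, 0 of OLIG2 and 2 of SOX10, which mark oligodendroglial cells, against at least 3125, 1137 and 1986 in every other library. PDGFRA, another marker of this lineage, had 406 counts in it and at least 2082 in the others. Over the 8 oligodendrocyte lineage markers, the mean log2 CPM (read count scaled to the library size, TMM-normalized) was -0.77 in French bulldog 6, 6.12 to 8.02 in the other French bulldogs and 7.07 to 7.72 in the comparison group. Over 11 macrophage and microglia markers, the mean was 8.80 in French bulldog 6, 2.32 to 4.83 in the other French bulldogs and 3.13 to 3.97 in the comparison group. In tissue of mixed cells, fewer cells of a type and less RNA per cell cannot be told apart. The library numbers in the labels also fall into more than 1 series, and no French bulldog is known to share a series with a comparison dog, so library series and breed group cannot be told apart.

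All 6 genes passed the filter on low counts. None of the 6 differed between French bulldogs and the comparison group at an adjusted p-value under 0.05 by edgeR's quasi-likelihood test, in which 0.00606% of the 16495 genes tested were called. None of the 6 had an unadjusted p-value under 0.05 either, a level that 10.6% of all genes reached. That count of 0 held with all libraries in the fit, and leaving out single libraries ended it for MGMT and PMS1, as given with these genes. DESeq2's Wald test, which called 0.278% of its genes, and limma-voom, which called 0.0121%, also called 0 of the 6. For each of the 6 genes the CPM range of the French bulldogs overlapped that of the comparison group. Ranges that did not overlap were found for 0.0546% of the genes tested. The median log2 fold change was 0.058 over the 6 genes and 0.035 over all genes tested. The log2 fold changes farthest from 0 belonged to MGMT, which was lower in French bulldogs, and to PMS1, which was higher, and the intervals of both included no difference.

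**Figure D1:**
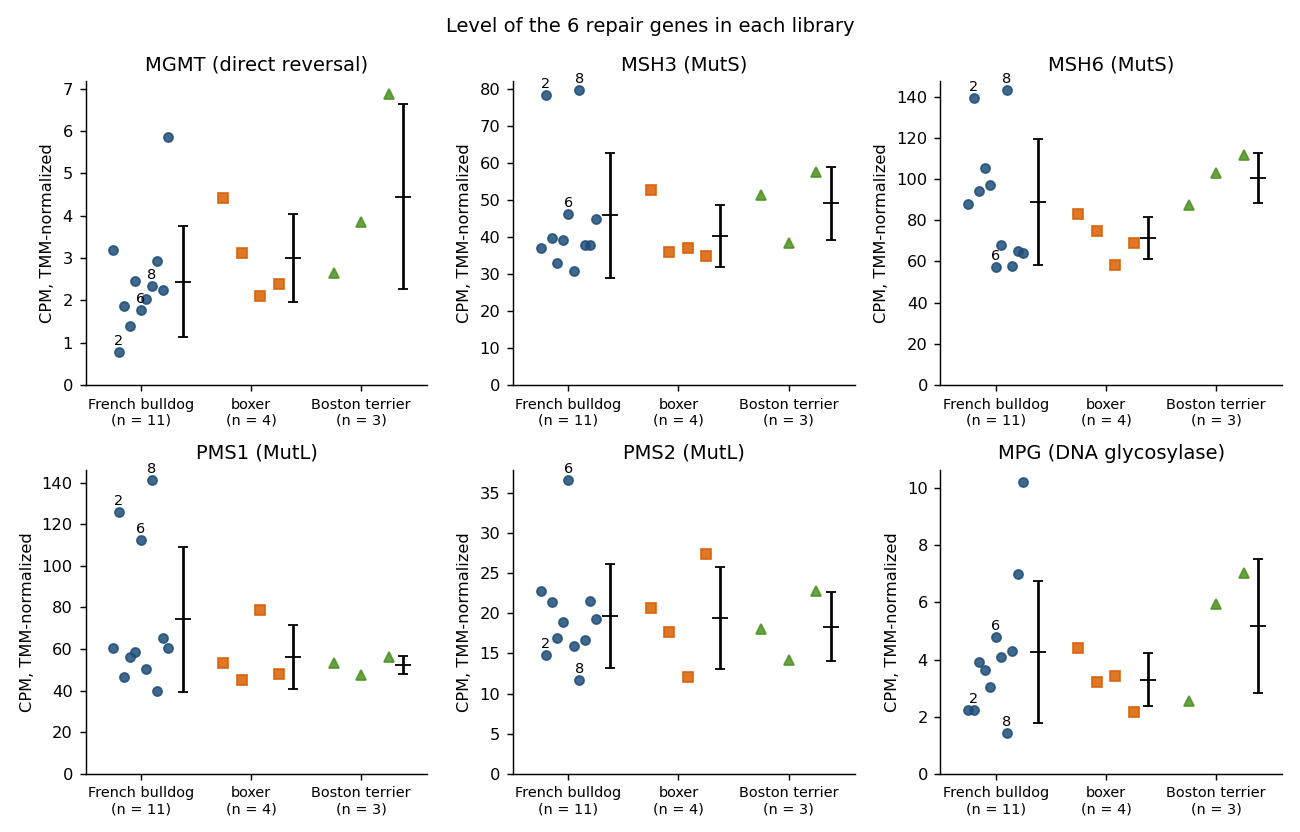
TMM-normalized CPM of each gene (vertical axis, linear from 0) in every library, by breed on the horizontal axis. Points are libraries, the bars beside them are the mean ± SD, and French bulldogs 2, 6 and 8 carry their number. French bulldogs overlap the other breeds in all 6 panels, and the French bulldogs farthest above the other breeds are 2 and 8 for MSH3, MSH6 and PMS1, 6 for PMS2 and 11 for MPG.

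MGMT (ENSCAFG00000013263), the direct reversal enzyme, had few reads in every library. The raw count was 7 at the lowest, 22 at the median and 59 at the highest of the French bulldogs, and the corresponding levels were 0.781 CPM in French bulldog 2, 2.24 CPM and 5.85 CPM in French bulldog 11. The 4 boxers had 4.41, 3.11, 2.098 and 2.38 CPM, and the 3 Boston terriers had 2.63, 3.85 and 6.87 CPM. The 5 French bulldogs numbered 2, 3, 4, 6 and 7 were below every dog of the comparison group, none was above the highest of them, and the other 6 lay within their range. The mean was 2.44 ± 1.31 CPM (SD, n = 11) in French bulldogs and 3.62 ± 1.65 CPM (SD, n = 7) in the comparison group. The log2 fold change was -0.57 (SE 0.34, edgeR's quasi-likelihood test, adjusted p = 0.553). As a fold, French bulldogs had 0.675 of the level of the comparison group, with a 95% interval of 0.413 to 1.10. This interval includes no difference. Single libraries moved the estimate. Without French bulldog 11 the log2 fold change was -0.78 (unadjusted p = 0.0193, adjusted p = 0.433), and without Boston terrier 7, the library with the highest MGMT level, it was -0.33 (adjusted p = 0.747).

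Low counts limited the precision of the MGMT levels. For 7 reads the exact 95% Poisson interval is 2.81 to 14.4 reads, so that French bulldog 2 is placed between 0.314 and 1.61 CPM. The interval of Boston terrier 7, with 83 reads, runs from 5.47 to 8.52 CPM and does not meet that of French bulldog 2. French bulldog 7, at 2.04 CPM, had an interval of 1.29 to 3.06 CPM, which takes in the levels of boxers 4 and 5 and Boston terrier 2. The labels name no molecular identifiers on the reads, so that PCR copies count as reads and the intervals cover only the error of counting. A floor of 3 counts, taken as the limit of detection at this depth, equaled 0.223 to 0.351 CPM, and every library was above it for MGMT.

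**Figure D2:**
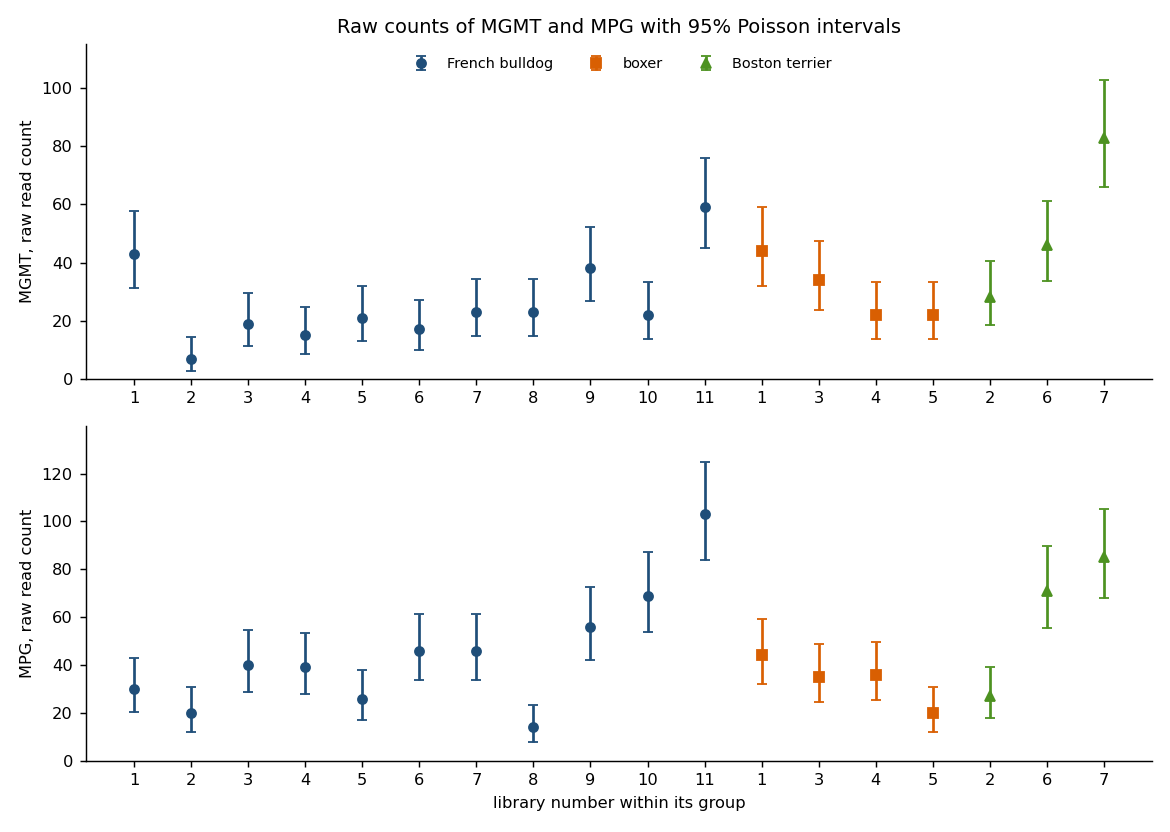
Raw read counts of MGMT (top) and MPG (bottom) on the vertical axis for each library, ordered by breed and library number on the horizontal axis. Bars are exact 95% Poisson intervals of the count. MGMT ranged from 7 reads in French bulldog 2 to 83 in Boston terrier 7, and MPG from 14 in French bulldog 8 to 103 in French bulldog 11.

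MSH6 (ENSCAFG00000002664), the MutS subunit for single-base mismatches, ranged from 57.2 CPM in French bulldog 6 through a median of 87.7 CPM to 143 CPM in French bulldog 8. It was 82.7, 74.9, 58.5 and 68.7 CPM in the 4 boxers and 87.3, 103 and 111 CPM in the 3 Boston terriers. Every boxer was below every Boston terrier, a separation in either direction that 7.25% of 17934 genes showed. The French bulldogs spanned both breeds, with 2 above and 2 below the whole comparison group. Those above were French bulldogs 2 and 8, which share a case number, at 139 and 143 CPM. Those below were French bulldogs 6 and 9, at 57.2 and 57.7 CPM. The mean was 88.9 ± 30.7 CPM (SD, n = 11) in French bulldogs and 83.8 ± 18.6 CPM (SD, n = 7) in the comparison group. On the log2 scale the fold change was 0.086 (SE 0.21, edgeR's quasi-likelihood test, adjusted p = 0.918), with a 95% interval of -0.35 to 0.52.

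MSH3 (ENSCAFG00000008788), the MutS subunit for insertion and deletion loops, ranged from 30.8 CPM in French bulldog 7 through a median of 39.1 CPM to 79.7 CPM in French bulldog 8. The 4 boxers had 52.7, 35.9, 37.2 and 35.0 CPM, and the 3 Boston terriers had 51.5, 38.3 and 57.6 CPM. French bulldogs 2 and 8, which share a case number, were the only libraries above 57.6 CPM, and 7 French bulldogs lay within the range of the comparison group. Apart from that pair, the highest French bulldog was 46.2 CPM in French bulldog 6. French bulldogs over the comparison group gave a log2 fold change of 0.060 (SE 0.21, edgeR's quasi-likelihood test, adjusted p = 0.948), and with libraries 2 and 8 summed as 1 dog it was -0.043.

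The counts of both MutS genes can also be set against each other within a library. These ratios are of raw counts, not corrected for gene length, so they say nothing of which protein is more abundant. MSH3 had 0.535 ± 0.148 reads for each MSH6 read in French bulldogs (SD, n = 11) and 0.534 ± 0.0948 in the comparison group (SD, n = 7). The lowest ratio was 0.314 in French bulldog 4 and the highest was 0.809 in French bulldog 6, the library with the lowest oligodendroglial markers. Without that library the French bulldog mean was 0.508.

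PMS1 (ENSCAFG00000009394), the subunit of the less defined MutL complex, ranged from 39.9 CPM in French bulldog 9 through a median of 60.3 CPM to 141 CPM in French bulldog 8. The 4 boxers had 53.1, 45.1, 78.6 and 48.1 CPM, and the 3 Boston terriers had 53.2, 47.5 and 56.0 CPM. French bulldogs 8, 2 and 6, with 141, 126 and 112 CPM, were above every comparison dog, 7 lay within their range and 1 was below it. The mean was 74.3 ± 34.9 CPM (SD, n = 11) in French bulldogs and 54.5 ± 11.3 CPM (SD, n = 7) in the comparison group. The log2 fold change was 0.45 (SE 0.25, edgeR's quasi-likelihood test, adjusted p = 0.527), or 1.36-fold with a 95% interval of 0.946 to 1.96. Its unadjusted p-value was 0.0400 without boxer 4 and 0.0498 without French bulldog 9, with log2 fold changes of 0.58 and 0.51 and adjusted p-values of 0.544 and 0.390. The 3 highest libraries are the pair that shares a case number and the library with the lowest oligodendroglial markers. With 2 and 8 summed and 6 left out, a setting that was added once the data had been seen, the log2 fold change was 0.23 (adjusted p = 0.806).

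PMS2 (ENSCAFG00000015559), the endonuclease subunit of MutL, ranged from 11.7 CPM in French bulldog 8 through a median of 19.0 CPM to 36.7 CPM in French bulldog 6. The 4 boxers had 20.6, 17.6, 12.0 and 27.3 CPM, and the 3 Boston terriers had 18.1, 14.1 and 22.8 CPM. Except for French bulldogs 6 and 8, all French bulldogs lay within the range of the comparison group. The means were 19.7 ± 6.50 CPM (SD, n = 11) in French bulldogs and 18.9 ± 5.19 CPM (SD, n = 7) in the comparison group. This gave a log2 fold change of 0.057 (SE 0.21, edgeR's quasi-likelihood test, adjusted p = 0.955). Without French bulldog 6 the SD of the French bulldogs was 3.44 CPM, and the log2 fold change was -0.047.

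The ratio of PMS1 to PMS2 varied widely between libraries. In raw counts, not corrected for length, PMS1 had a median of 3.09 reads for each PMS2 read in French bulldogs, from 2.17 in French bulldog 3 to 12.1 in French bulldog 8. In the comparison group the median ratio was 2.57, from 1.76 in boxer 5 to 6.54 in boxer 4. French bulldog 8 and boxer 4, the highest of their groups for this ratio, combined the highest PMS1 and the lowest PMS2 level of their group. Over the 16 units formed by leaving out French bulldog 6 and summing 2 and 8, the log2 CPM of PMS1 and PMS2 had a Spearman rho of -0.056 and a Pearson r of -0.41, given as a description.

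MPG (ENSCAFG00000019700), the glycosylase for alkylated bases, ranged from 1.42 CPM in French bulldog 8 through a median of 3.91 CPM to 10.2 CPM in French bulldog 11. The 4 boxers had 4.41, 3.20, 3.43 and 2.16 CPM, and the 3 Boston terriers had 2.54, 5.94 and 7.04 CPM. French bulldogs 8 and 11 bounded the whole set of libraries, and the other 9 French bulldogs lay within the range of the comparison group. The mean was 4.26 ± 2.48 CPM (SD, n = 11) in French bulldogs and 4.10 ± 1.81 CPM (SD, n = 7) in the comparison group. Between the groups the log2 fold change was 0.053 (SE 0.36, edgeR's quasi-likelihood test, adjusted p = 0.976). Its 95% interval, 0.616-fold to 1.75-fold, was the widest of the 6 genes, and the sign of the log2 fold change depended on the method, since limma-voom gave -0.050.

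MGMT and MPG both act directly on alkylated bases, and French bulldog 11 had the highest level of both among the French bulldogs, as Boston terrier 7 had among the comparison dogs. Per MPG read, the MGMT count was 0.500 at the median of the French bulldogs, from 0.319 in French bulldog 10 to 1.64 in French bulldog 8. It was 0.976 at the median of the comparison group, from 0.611 in boxer 4 to 1.10 in boxer 5. The ratios of the groups overlapped and were not tested. Over the same 16 units, MGMT and MPG had the highest Spearman rho of the 15 pairs of the 6 genes, 0.47, with a Pearson r of 0.60. The next pair by Spearman rho was MSH3 and MSH6, with 0.37, and by Pearson r the highest pair was MSH3 and PMS1, with 0.62. These values are descriptions, and all units share the TMM scaling.

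The breeds were also compared in pairs, in 1 fit with 3 groups over 17934 genes. These comparisons share libraries with each other and with the one above. In no pair was any of the 6 genes below 0.05 in adjusted p-value, where 0% of all genes were called between French bulldogs and boxers, 0.00558% between French bulldogs and Boston terriers and 0% between boxers and Boston terriers. None of the 6 had an unadjusted p-value under 0.05 in any pair by this test with all libraries, and no other test was run on the pairs. Boston terriers had the highest and French bulldogs the lowest mean MGMT level, with boxers between them at 2.998 ± 1.03 CPM (SD, n = 4). The MGMT log2 fold change of French bulldogs was -0.29 against boxers (SE 0.41, edgeR's quasi-likelihood test, adjusted p = 0.861) and -0.87 against Boston terriers (SE 0.44, adjusted p = 0.983). Between boxers and Boston terriers it was -0.57 (SE 0.54, adjusted p = 1). No neighbors in this order differed beyond their spread. The Boston terrier value was carried by few dogs, since their mean of 4.45 ± 2.18 CPM (SD, n = 3) included 1 library at 6.87 CPM. Without that library, Boston terrier 7, the MGMT log2 fold change of French bulldogs against Boston terriers was -0.41 (unadjusted p = 0.447), and without Boston terrier 2 it was -1.13 (unadjusted p = 0.0358, adjusted p = 1.000).

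For MSH6 the order was Boston terriers, French bulldogs and boxers, with means of 100.5 ± 12.2, 88.9 ± 30.7 and 71.2 ± 10.3 CPM (SD, n = 3, 11 and 4). The log2 fold change between boxers and Boston terriers, whose levels did not overlap, was -0.50 (SE 0.32, edgeR's quasi-likelihood test, adjusted p = 1). MSH3 and MPG followed the same order of means for Boston terriers, French bulldogs and boxers. For MSH3 the means were 49.1, 45.9 and 40.2 CPM, and for MPG they were 5.17, 4.26 and 3.30 CPM. PMS1 was highest in French bulldogs, with log2 fold changes of 0.40 against boxers (SE 0.31, edgeR's quasi-likelihood test, adjusted p = 0.724) and 0.51 against Boston terriers (SE 0.36, adjusted p = 0.983). PMS2 was the most even gene, with breed means of 19.7, 19.4 and 18.3 CPM in French bulldogs, boxers and Boston terriers.

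**Figure D3:**
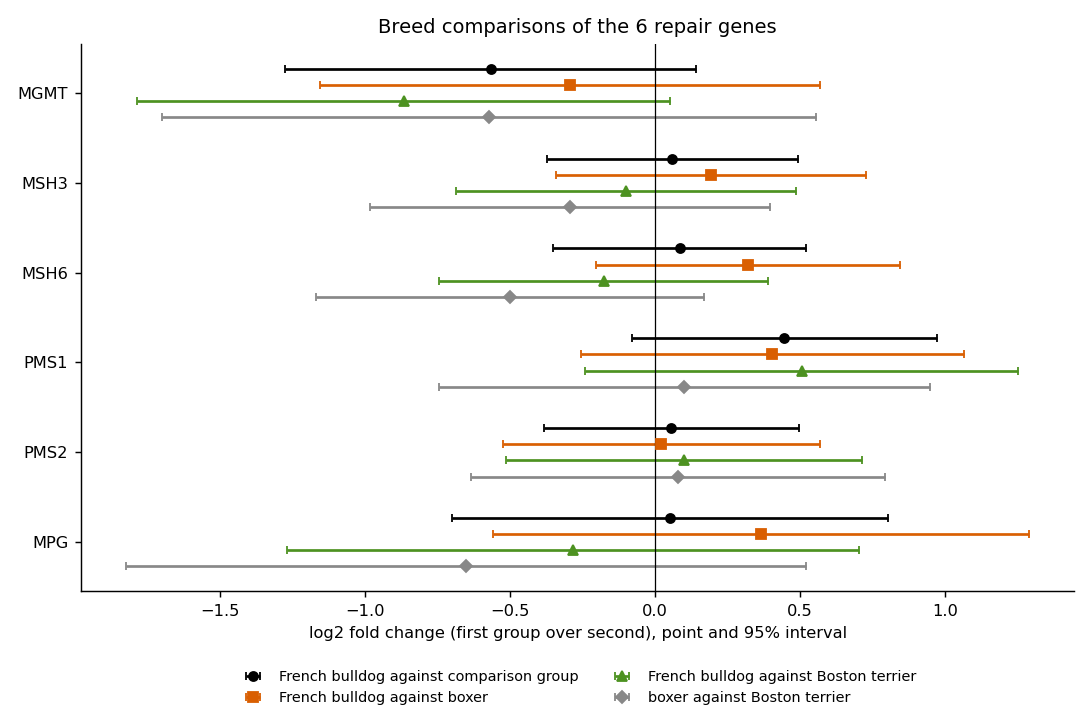
Log2 fold change (horizontal axis) of each gene (vertical axis) in the comparison of French bulldogs with the comparison group and in the 3 pairs of breeds. Points are estimates of edgeR's quasi-likelihood model and bars their 95% intervals. Every interval drawn includes 0, and the point farthest from 0 is MGMT in French bulldogs against Boston terriers, at -0.87.

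The other genes of these pathways were read from the same fit. Of 22 genes listed here as mismatch repair partners, 19 were tested. The list was drawn broadly, and not every gene on it acts in mismatch repair itself. Among the 19, 14 had a positive and 5 a negative log2 fold change in French bulldogs, with a median of 0.31 against 0.035 over all genes. None passed at an adjusted p-value under 0.05 by edgeR's quasi-likelihood test. At an unadjusted p-value under 0.05 there were 4 genes, all of them higher in French bulldogs, while 1158 genes in all were higher and 586 lower at this level. They were RFC3, a subunit of the clamp loader, with a log2 fold change of 1.15 (SE 0.38, adjusted p = 0.433), PCNA, the sliding clamp, with 0.90 (SE 0.42, adjusted p = 0.468), RPA2, a subunit of the single-strand binding protein, with 0.64 (SE 0.26, adjusted p = 0.433), and the chromatin protein HMGB1, with 0.38 (SE 0.18, adjusted p = 0.469). RPA1 and RFC4, the next by p-value, had log2 fold changes of 0.39 and 0.53. These 6 genes also serve DNA replication or chromatin in general. With French bulldog 6 left out 3 of the 19 genes had an unadjusted p-value under 0.05, and with 2 and 8 also summed 2 had, with a median of 0.14. Over all genes, 1135 were higher and 644 lower at this level of 16403 in the former setting. In the latter, 745 were higher and 651 lower of 16397.

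Genes of proliferating cells were read beside these partners. All 25 genes tested from a proliferation list, which holds no mismatch repair gene, had a positive log2 fold change in French bulldogs, with a median of 0.79. By edgeR's quasi-likelihood test, 9 of them had an unadjusted and 0 an adjusted p-value under 0.05. Over all 16495 genes tested, 8863 had a positive log2 fold change and 10.6% had an unadjusted p-value under 0.05. The mean log2 CPM of the list was 2.74 to 5.52 in French bulldogs and 2.89 to 4.87 in the comparison group. With French bulldog 6 left out and 2 and 8 summed, 23 of the 25 were positive, the median was 0.48 and 0 had an unadjusted p-value under 0.05. In that setting 8645 of all 16397 genes were positive. At an unadjusted p-value under 0.05, 745 of all genes were higher and 651 lower. The part of proliferation in the values of the partners was not tested.

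Of the other direct reversal genes, all 5 were tested, and 4 had a positive log2 fold change, with a median of 0.19. ALKBH3 and ALKBH2, which oxidize alkylated bases, had 0.42 (SE 0.39) and 0.19 (SE 0.25), and ASCC3, ASCC1 and ASCC2, partners of ALKBH3, had 0.31, 0.094 and -0.12. None had an adjusted or unadjusted p-value under 0.05 by edgeR's quasi-likelihood test with all libraries. Without French bulldog 6 ASCC2 was at -0.31 (unadjusted p = 0.0340, adjusted p = 0.437), and with 2 and 8 also summed it was at -0.30 (unadjusted p = 0.0303, adjusted p = 0.570). In base excision and single-strand break repair, the pathway that follows MPG, 20 of 21 genes were tested, with 11 positive and 9 negative log2 fold changes and a median of 0.014. The flap endonuclease FEN1 was at 0.68 (SE 0.29, adjusted p = 0.444). The glycosylase NEIL1 was at -0.79 (SE 0.28, adjusted p = 0.433), with 16.8 ± 9.21 CPM in French bulldogs (SD, n = 11) and 29.0 ± 4.82 CPM in the comparison group (SD, n = 7). Both had an unadjusted p-value under 0.05, and none of the 20 genes had an adjusted p-value under 0.05 by edgeR's quasi-likelihood test. APLF, NTHL1 and UNG had log2 fold changes of 0.42, -0.44 and 0.37. With French bulldog 6 left out and 2 and 8 summed, FEN1 was at 0.57 and no longer under 0.05 in unadjusted p-value, and NEIL1 was at -0.66 and still under it.

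**Figure D4:**
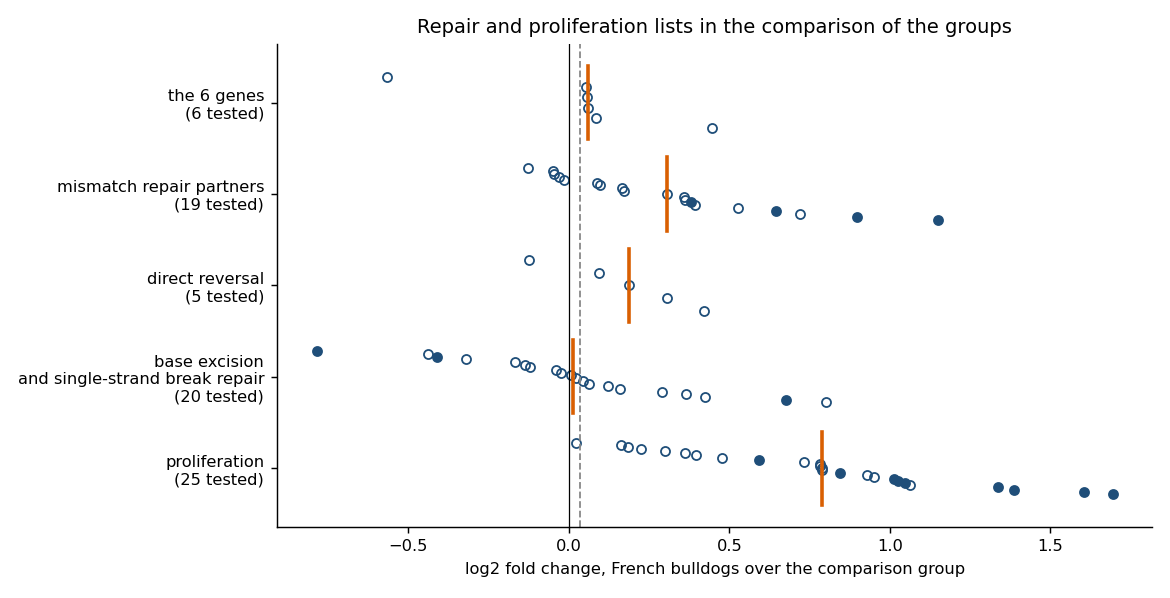
Log2 fold change of French bulldogs over the comparison group (horizontal axis) for each tested gene of the 6 repair genes, 3 repair lists and the proliferation list (vertical axis). Filled points have an unadjusted p-value under 0.05, orange lines are list medians, and the dashed line is the median of all genes at 0.035. The 6 genes have a median of 0.058, the mismatch repair partners 0.31 and the proliferation list 0.79.

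Whether the 6 genes followed the proliferation, oligodendrocyte lineage or macrophage lists across tumors was tested over the 16 units, as 18 correlations with Benjamini-Hochberg adjustment. MSH6 rose with the proliferation list, with a Pearson r of 0.70 (permutation p = 0.00268, adjusted p = 0.0414) and a Spearman rho of 0.63 (permutation p = 0.0100, adjusted p = 0.0903). It also rose with the oligodendrocyte lineage list, with r = 0.66 (permutation p = 0.00460, adjusted p = 0.0414) and rho = 0.72 (permutation p = 0.00226, adjusted p = 0.0407). The relations cannot be read as separate results, since both lists had the same French bulldog units at their ends. Among these units, the sum of 2 and 8 was highest on both lists (5.48 and 8.04). French bulldogs 9 (2.88 and 6.12) and 11 (2.74 and 6.61) were lowest on both. How far the lists follow each other was not tested. With DESeq2 size factors neither relation passed the adjustment, with r = 0.68 for proliferation (adjusted permutation p = 0.0781) and 0.61 for the oligodendrocyte lineage (adjusted permutation p = 0.0922). Without the 2 units farthest from the median of the list, which leaves 14 units, r was 0.53 and 0.54, each with an adjusted permutation p of 0.146. Within the 9 French bulldog units MSH6 had r = 0.88 with proliferation (exact permutation p = 0.00205, adjusted p = 0.0369) and 0.83 with the oligodendrocyte lineage (exact permutation p = 0.00526, adjusted p = 0.0474). The rho of the same units was 0.80 with proliferation (exact permutation p = 0.0138, adjusted p = 0.124), which did not pass, and 0.90 with the oligodendrocyte lineage (exact permutation p = 0.00203, adjusted p = 0.0365). Within the 7 comparison dogs r was 0.32 (exact permutation p = 0.486) and 0.25 (exact permutation p = 0.592), and rho was 0.18 (exact permutation p = 0.713) and 0.57 (exact permutation p = 0.200). Neither relation was detectable in the comparison group, and whether they differ between the groups was not tested. French bulldog 6, which had a proliferation mean of 5.38 and the lowest MSH6 level, lowered r with proliferation to 0.46 when it was included, and r with the oligodendrocyte lineage was then 0.47 (adjusted permutation p of 0.190 for both). In that setting rho was 0.40 with proliferation (adjusted permutation p = 0.327) and 0.77 with the oligodendrocyte lineage (adjusted permutation p = 0.00864).

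No other gene passed the adjustment over the 16 units. PMS1 had r = 0.57 with proliferation (permutation p = 0.0141, adjusted p = 0.0844) and rho = 0.53 (permutation p = 0.0361, adjusted p = 0.216). MSH3 had r = 0.42 and rho = 0.11, and PMS2 had r = 0.18 and rho = 0.28, with adjusted permutation p-values of 0.233, 0.837, 0.540 and 0.456. MGMT and MPG had negative values with proliferation, with r = -0.36 and -0.44 and rho = -0.42 and -0.39, and adjusted permutation p-values of 0.261, 0.229, 0.422 and 0.422. With the macrophage list, MGMT had r = 0.44 and rho = 0.26 (adjusted permutation p = 0.229 and 0.468), with r = 0.79 within the 9 French bulldog units (exact permutation p = 0.0101, adjusted p = 0.0607) and -0.23 within the 7 comparison dogs (exact permutation p = 0.627). The corresponding rho was 0.70 (exact permutation p = 0.0433, adjusted p = 0.156) and -0.36 (exact permutation p = 0.444). With French bulldog 6, the library with the highest macrophage level, included, MGMT had r = -0.029 and rho = 0.12 with this list (adjusted permutation p = 0.962 and 0.676). In the same setting PMS2, which was highest in French bulldog 6, had r = 0.69 and rho = 0.43 with the macrophage list (adjusted permutation p = 0.0482 and 0.312), against 0.36 and 0.31 without that library. Over the 16 units, the other 10 correlations of MGMT, MSH3, MSH6, PMS1, PMS2 and MPG with the oligodendrocyte or macrophage lists had adjusted permutation p-values of at least 0.170. With 2 and 8 as separate libraries, PMS1 had r = 0.63 and rho = 0.44 with the oligodendrocyte list (adjusted permutation p = 0.0422 and 0.177). With French bulldog 6 included, its r was -0.40 and its rho 0.15 (adjusted permutation p = 0.232 and 0.676).

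**Figure D5:**
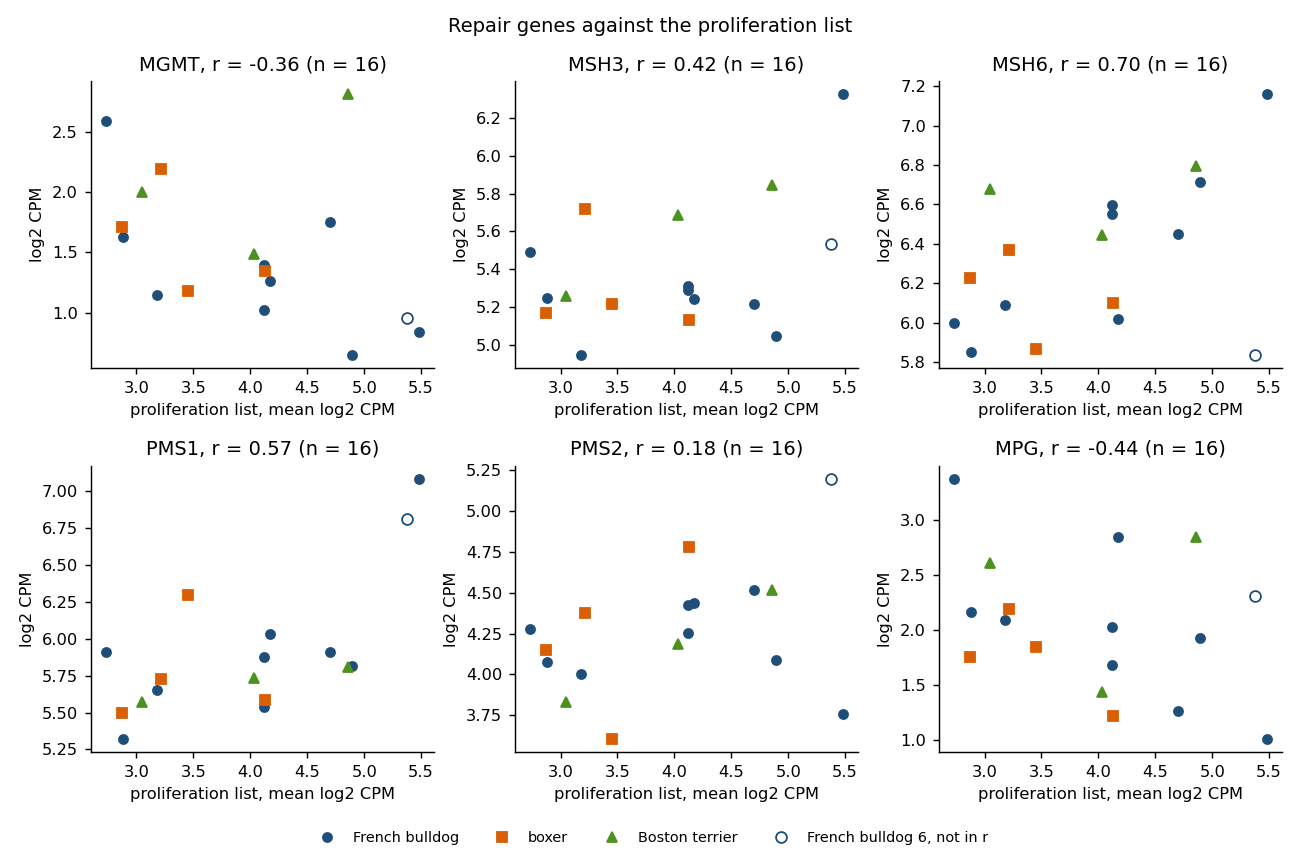
Log2 CPM of each gene (vertical axis) against the mean log2 CPM of the proliferation list (horizontal axis) over 16 units, in which French bulldogs 2 and 8 are summed. The open circle is French bulldog 6, which does not enter r. MSH6 has the highest r, 0.70, and the unit farthest to the right is the sum of French bulldogs 2 and 8.

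The genes whose log2 CPM was most like that of each repair gene were found by Spearman rho over 17 libraries, all but French bulldog 6, as a description. MSH6 was most like HNRNPM, HMGXB4 and CDK4, the cyclin-dependent kinase of G1 phase, with rho of 0.93, 0.92 and 0.91. MPG was most like GPR180, at 0.93, followed by UBAC2 and CAPN7, both below 0.87. PMS1 was most like SEC24A, at 0.91, ALG2 and LATS1, and PMS2 was most like LY96, at 0.88, POLM and DDX5. MSH3 was like CASC3, at 0.85, and ACAT1, at 0.83. MGMT had the weakest likeness of the 6, with rho of 0.80 for BCL7C, 0.80 for CAB39L and 0.76 for LRCH1. None of these neighbors was another of the 6 genes.

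French bulldogs 2 and 8 gave a measure of how closely each gene was repeated in libraries that may come from 1 dog. MSH3 differed between them by 0.023 and MSH6 by 0.042 on the log2 scale, while the median difference of the other 54 pairs of French bulldogs was 0.29 and 0.56. PMS1 differed by 0.16 against 0.58, PMS2 by 0.34 against 0.37 and MPG by 0.58 against 0.79. MGMT was the exception, with a difference of 1.38 against 0.61, between 7 reads in French bulldog 2 and 23 in French bulldog 8. Thus MGMT, the gene with the lowest read counts, was the one of the 6 for which these libraries differed by more than the median of the other pairs.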

How the data were processed

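Groups were taken from the breed labels, 11 French bulldogs, 4 boxers and 3 Boston terriers. The authors trimmed the paired-end reads, aligned them to the dog genome (canFam6) and counted them per gene, and deposited raw counts without normalization. The submitters' processing notes name Trimmomatic 0.33, HISAT2 2.1.0 and featureCounts. The library kit is stranded. How the counting treated strand and multiply mapped reads is not given in the sources used here. In RefSeq's annotation of another assembly (UU_Cfam_GSD_1.0), MSH6 overlaps FBXO11, PMS1 overlaps ORMDL1 and another gene, PMS2 overlaps AIMP2, and MPG overlaps NPRL3 and RHBDF1, so reads of these genes could be shared.

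Counts were TMM-normalized, filtered with filterByExpr (16495 genes kept) and tested in edgeR 4.0.16 under R 4.3.3 by its quasi-likelihood F test (robust, two-sided, no covariate), with Benjamini-Hochberg adjustment over all genes and a threshold of 0.05. Alternatives were DESeq2 1.42.0, limma-voom (limma 3.58.1), other scalings and filters, and other sets of libraries. The code was tested on simulated data. Log2 CPM used a prior count of 2, list levels are means of log2 CPM, and correlations were tested with 100000 permutations, or by all permutations within a group. All 6 genes, up to 6 genes of each repair list with the smallest p-values, and the 3 genes most like each gene were named, except for some items that are not reported here. The genes and lists were chosen with earlier results of these data known. Nothing in the labels states that each library is a separate dog, so p-values measure the spread between libraries. Gene length and sequence were not used here.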

Additional observations from a re-analysis of the deposited data

Results flagged for a closer look

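In each gene the boxers and the comparison group were searched for a library far from the others (Dixon's criterion), 12 groups in all, of which chance marks about 1 in 20. Boxer 1 stood apart for MSH3, at 52.7 CPM, where the next boxer was at 37.2 CPM (n = 4). Boxer 4 stood apart for PMS1, at 78.6 CPM, where the next dog of the comparison group was at 56.0 CPM (n = 7), and without it French bulldogs had a PMS1 log2 fold change of 0.58 over the other comparison dogs (edgeR's quasi-likelihood test, adjusted p = 0.544).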

How the results depend on the processing

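In no alternative did any of the 6 genes pass 0.05 in adjusted p-value. MGMT kept a negative log2 fold change in all 32 alternatives (-0.90 to -0.29) and PMS1 a positive one in all 33 (0.23 to 0.58). MGMT could not be fitted with at least 10 counts in every library, since French bulldog 2 had 7. The other genes changed sign near 0. MPG was at -0.050 by limma-voom, -0.27 against Boston terriers alone and -0.23 against boxer 5 and Boston terriers 6 and 7, the second library series. MSH6 was at -0.18 and -0.089 in the last 2 of these settings, MSH3 at -0.10 against Boston terriers alone and PMS2 at -0.11 against the second series. Summing French bulldogs 2 and 8 gave -0.043 for MSH3. Also leaving out French bulldog 6, an alternative chosen after seeing the data, gave -0.055 for MSH3 and -0.031 for PMS2. With 1 library left out in turn, log2 fold changes ranged from -0.78 to -0.33 for MGMT, -0.050 to 0.14 for MSH3, -0.00484 to 0.17 for MSH6, 0.31 to 0.58 for PMS1, -0.047 to 0.17 for PMS2 and -0.16 to 0.24 for MPG.

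The number of genes called over the whole table was 1 and depended on the setting. It was 2 with upper quartile normalization or limma-voom, 58 by DESeq2's Wald test, and 0 with at least 10 counts in every library, with French bulldogs 2 and 8 summed (with or without 6), against the boxers alone or against either library series. With 1 library left out it was 0 to 7, with 7 without French bulldog 9, 3 without French bulldog 6, 2 without French bulldog 10 or boxer 5, and 0 without French bulldog 1, 2, 3, 7, 8 or 11, boxer 1, 3 or 4 or any Boston terrier. In pairs of breeds it was 0 to 2 for French bulldogs against boxers (2 without boxer 4) and 0 to 2 against Boston terriers (0 without Boston terrier 6 and 2 without 7). Same-numbered libraries of the groups did not deviate together (correlations of -0.50 to 0.21), so the numbers do not pair the dogs. A replicate block over the numbers 1 to 7 called 0 genes, with 967 at an unadjusted p-value under 0.05, and gave -0.90 for MGMT (unadjusted p = 0.0275, adjusted p = 0.778), -0.054 for MSH3 and -0.20 for MPG.

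The correlation of MSH6 with the proliferation list was 0.46 with French bulldog 6, 0.68 with DESeq2 size factors and 0.53 without the 2 farthest units, none past the adjustment, and 0.75 with 2 and 8 as separate libraries, which passed it. That of PMS1, as Pearson r, passed it at 0.66 with French bulldog 6 or with 2 and 8 as separate libraries. The rho of PMS1 was 0.61 in both settings and did not pass (adjusted permutation p = 0.0976 and 0.0635). For PMS2, r was -0.011 with 2 and 8 separate. The causes were not tested. Depth limits MGMT and MPG most, with counts from 7 to 103.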
